A study of Mus musculus with 15 samples.

Results

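The 212 gene ends described here are starts and stops of protein-coding genes at which CpG methylation in the mouse dentate gyrus was high. They were 5.05% of 4200 measured autosomal gene ends. A stop here is the 3′ end of the annotated gene, not the stop codon. A gene end was measured when at least 3 CpG rows within 1 kb on either side of it had a value in all 15 mice. A row is a single cytosine on a single strand, and its value is the percent of reads in which it was methylated. The members were chosen by their level: a mean over rows and all 15 mice of at least 70%. That level is therefore a description and was not tested. The members belonged to 196 genes. In 20 cases 2 members had exactly the same rows, 14 times both ends of a short gene and 6 times the ends of neighbouring genes. The members thus rested on 192 distinct sets of rows and 762 rows in all. Some of these sets overlap: the rows of the Spertl stop and of the Svs5 start lie within those of the other end of the gene.

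Methylated cytosine in mammals is found mainly in CpG dinucleotides, where it is written by DNA methyltransferases and copied to the daughter strand after replication. CpG-dense promoters, called CpG islands, are usually free of methylation whether or not the gene is transcribed. CpG-poor promoters of tissue-restricted genes, transcribed gene bodies and gene stops are usually methylated, and a small class of germline promoters is CpG-rich and yet methylated in somatic tissue.

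The dentate gyrus is the part of the hippocampal formation in which new granule neurons are added in adult rodents. It was dissected from 15 female C57BL/6JRj mice aged 7.5 months, 5 in each of 3 housing groups. The standard group lived in ordinary cages for 6 months, the enriched group in an enriched environment for 6 months, and the withdrawal group for 3 months in the enriched environment and then 3 months in ordinary cages. DNA of each mouse was profiled by RRBS, reduced representation bisulfite sequencing, which enriches CpG-dense fragments, and the bulk tissue mixes all its cell types.

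The deposited table gave percentages without read counts. Depth per value is therefore unknown, and no counting interval is given. It held 2918114 rows, of which 455836 were CpG rows and 113897 of those had a value in every mouse. Between 297844 and 444106 CpG rows had a value in a single mouse. All 40873 CpG rows that lay in a reference promoter fell on a C of GRCm38, and in all 40733 whose next base was in that promoter it was a G, so coordinates are given on that build. None of the granule neuron, inhibitory neuron, astrocyte, oligodendrocyte or endothelial marker genes with a measured end was a member. The 6 measured ends of granule neuron markers had a median of 1.99%, with Prox1 at 1.73% and Slc17a7 highest at 42.7%. The medians were 5.70% for inhibitory neuron markers (7 ends), 1.64% for astrocyte (4), 6% for oligodendrocyte (2) and 3.2% for endothelial markers (1). The median over all 4200 ends was 1.97%. Low levels at these markers are therefore like those of most gene ends and do not show which cell types were present. No microglial marker had a measured end.

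The 5 promoters below are shown because they hold the most measured CpG rows among the member starts that matched a promoter in the RefSeq table, from 7 rows in Prr23a3 to 4 in D1Pas1. Each runs 5′ to 3′ on the gene's strand, from 250 bases before the annotated start to 50 after it, and comes from RefSeq on GRCm38.p6. Capitals mark the CpGs that had a value in all 15 mice.
Prr23a3: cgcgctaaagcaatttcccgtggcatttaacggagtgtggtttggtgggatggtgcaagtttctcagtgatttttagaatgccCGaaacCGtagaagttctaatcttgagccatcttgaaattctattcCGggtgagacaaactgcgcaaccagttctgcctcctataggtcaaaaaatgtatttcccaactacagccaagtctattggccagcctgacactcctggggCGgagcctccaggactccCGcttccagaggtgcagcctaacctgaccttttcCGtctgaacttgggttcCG
Rpl39l: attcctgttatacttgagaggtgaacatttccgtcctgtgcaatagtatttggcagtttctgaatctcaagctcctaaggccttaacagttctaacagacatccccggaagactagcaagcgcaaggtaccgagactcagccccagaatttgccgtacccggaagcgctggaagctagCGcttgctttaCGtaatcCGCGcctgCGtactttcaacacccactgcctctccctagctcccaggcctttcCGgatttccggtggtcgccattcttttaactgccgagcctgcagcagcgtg
S100z: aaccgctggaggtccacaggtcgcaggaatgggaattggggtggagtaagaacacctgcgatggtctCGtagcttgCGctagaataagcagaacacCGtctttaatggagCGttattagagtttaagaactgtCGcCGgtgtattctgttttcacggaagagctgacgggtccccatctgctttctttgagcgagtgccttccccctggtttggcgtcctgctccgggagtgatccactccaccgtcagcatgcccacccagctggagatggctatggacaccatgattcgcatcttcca
A1cf: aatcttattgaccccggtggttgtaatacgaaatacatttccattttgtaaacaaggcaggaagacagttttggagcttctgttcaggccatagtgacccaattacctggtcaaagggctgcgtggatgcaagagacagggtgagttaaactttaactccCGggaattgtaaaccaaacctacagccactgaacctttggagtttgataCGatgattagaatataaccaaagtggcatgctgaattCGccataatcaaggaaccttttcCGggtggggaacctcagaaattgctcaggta
D1Pas1: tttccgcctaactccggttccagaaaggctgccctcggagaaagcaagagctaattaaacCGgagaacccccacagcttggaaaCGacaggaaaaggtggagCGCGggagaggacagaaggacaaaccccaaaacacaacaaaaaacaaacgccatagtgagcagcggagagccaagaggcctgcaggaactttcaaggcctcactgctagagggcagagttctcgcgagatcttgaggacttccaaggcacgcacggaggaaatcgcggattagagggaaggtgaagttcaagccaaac

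The Prr23a3 promoter (chr9:98864517-98864816, plus strand) carried 12 CpGs and 7 measured rows with a mean of 72.7%. Its level was uneven along the sequence. The pair of rows 166 and 160 bases before the start had 96.8% and 93.7%, the row at -120 had 78.9%, and those at -20 and -2 had 55.0% and 58.6%. The row 32 bases into the gene was the lowest at 40.8%, and the last row, at 49 bases, stood at 85.4%.

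Rpl39l, a testis-enriched paralogue of a large-subunit ribosomal protein, had 6 measured rows in its promoter (chr16:10169978-10170277, plus strand), from 76.2% to 97.0%. S100z, of the S100 family of calcium-binding proteins, had 6 rows from 71.6% to 98.9% (chr13:95478606-95478905, minus strand). A1cf encodes an RNA-binding cofactor of apolipoprotein B mRNA editing. Its promoter (chr19:31868563-31868862, plus strand) was read on 5 rows at 4 CpGs, all between 94.8% and 97.0%. D1Pas1, an autosomal DEAD-box helicase gene of the testis, had 4 promoter rows from 95.7% to 99.6% (chr1:186967166-186967465, plus strand). In these 4 promoters no measured row was under 70%.

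Methylation over the 4200 gene ends was concentrated at low values. A total of 3778 ends (90%) had a mean under 20%, 210 (5%) lay from 20% to under 70%, and 212 were members. The members ranged from 71.0% to 99.4% with a median of 91.9%, and 128 of them were at 90% or more. Of their 11430 values over rows and mice, 46.9% were exactly 100, 66.4% were at least 90% and 2.83% were under 50%. Members had a median of 3 complete rows, against 5 for gene ends under 20%.

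**Figure D1:**
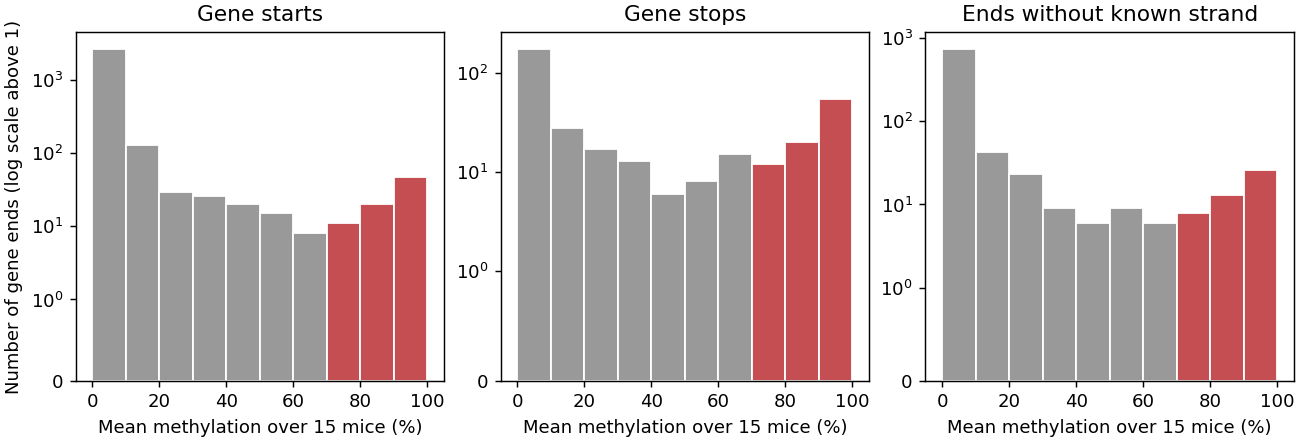
Number of autosomal gene ends (vertical axis, logarithmic above 1, with its own range in each panel) by mean methylation over 15 mice in percent (horizontal axis, 10-point classes), for starts, stops and ends whose gene's strand was not known. Red classes are the members, 78 starts, 87 stops and 47 of unknown strand; most starts lie in the lowest class.

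Starts and stops differed in how often they were members. Strand came from the RefSeq promoter table, which covered 17492 of 21900 protein-coding genes. Of 2976 gene starts 78 were members (2.62%), while of 349 gene stops 87 were (24.9%). A further 47 of 875 ends (5.37%) belonged to genes with no strand in that table and are called upper or lower by coordinate. Most measured stops were low too, with 203 of the 349 (58.2%) under 20%. Another gene's end lay in the window of 45.3% of those low stops and of 3.45% of the member stops. The shares of members describe the chosen set, and none of these shares carries a test.

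Among the starts, the highest levels were at Prdm10, which encodes a PR-domain zinc finger protein, with a mean of 99.4% on 3 rows (GRCm38 chr9:31275138-31275181), all upstream of the gene and inside the neighbouring Gm7244. Its lowest mouse was at 97.5%. Triml1 and Triml2, neighbouring genes of the tripartite-motif family, shared 4 rows with a mean of 98.9% (chr8:43180744-43180808). Tuba3b, a testis alpha-tubulin gene, had 98.2% on 7 rows inside the gene. Cbx7, a chromobox subunit of Polycomb repressive complex 1, had 97.9% on 4 rows. The others of the 10 highest starts were Gm11563 (98.8%), Gm40453 (98.4%), Ppp1r14bl (98.3%), LOC115488029 (97.9%) and Prr23a1 (97.8%). The lowest mean of a housing group among these 10 was 96.0%, at Prr23a1 in the enriched mice.

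The position annotated as a start was not always where the promoter table placed one. For 64 of the 78 member starts (82.1%) a RefSeq promoter began within 100 bases, beside 2323 of all 2976 starts (78.1%). For 10 member starts (12.8%) the nearest was more than 1000 bases away, beside 172 of all starts (5.78%). Those 10 were Trip12, Cbx7, Plekha6, Mgst2, Enthd1, Zbtb8b, Prdm10, Triml1, Arl9 and Unc79. No promoter sequence was matched to these starts, among them Mgst2 and Arl9 with 8 complete rows each.

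The sequence of the matched promoters, which the choice of members did not use, was poorer in CpG than that of other starts. The median ratio of observed to expected CpGs was 0.368 in the 64 member promoters and 0.805 in the 2191 promoters of starts under 20%. Complete rows lay within the promoter sequence itself at only 15 of these 64 and at 786 of these 2191. At the rest the complete rows lay elsewhere in the window, so the level of the promoter sequence itself was not measured on them. The member promoters held a median of 7 CpGs and 50.8% G+C, against 22 CpGs and 61% for the starts under 20%. A ratio of at least 0.6, the level often used for CpG islands, was reached by 18 of 64 (28.1%) against 82.2%. Of the printed promoters, those of Prr23a3, Rpl39l, S100z and D1Pas1 were above that ratio, from 0.641 to 0.837, and A1cf was below it at 0.493. These are descriptions without a test.

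Short motifs were searched on either strand of the same 300 bases. CCGG, the cut site of the RRBS enzyme MspI, was present in 39 of 64 member promoters (60.9%), in 91.2% of promoters of starts under 20% and in 52.8% of all 32851 promoters in the table. TATAAA, the core of the TATA box, was present in 16 of 64 (25%), in 6.80% of promoters of starts under 20% and in 13.6% of all promoters. A match gives only the presence of the letters.

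Around member starts the level was similar at every distance. The mean over rows was 92.5% from 1000 to 600 bases before the start, 87.6% from 600 to 200 before, 91.2% within 200 bases, 90.4% from 200 to 600 bases into the gene and 90.8% beyond. At all other starts the corresponding means were 8.41%, 3.84%, 2.11%, 2.50% and 4.53%, lowest at the start itself. The members' means come from the rows that chose them. Of the rows at member starts 46.1% lay inside the gene, beside 59.0% at starts under 20%.

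**Figure D2:**
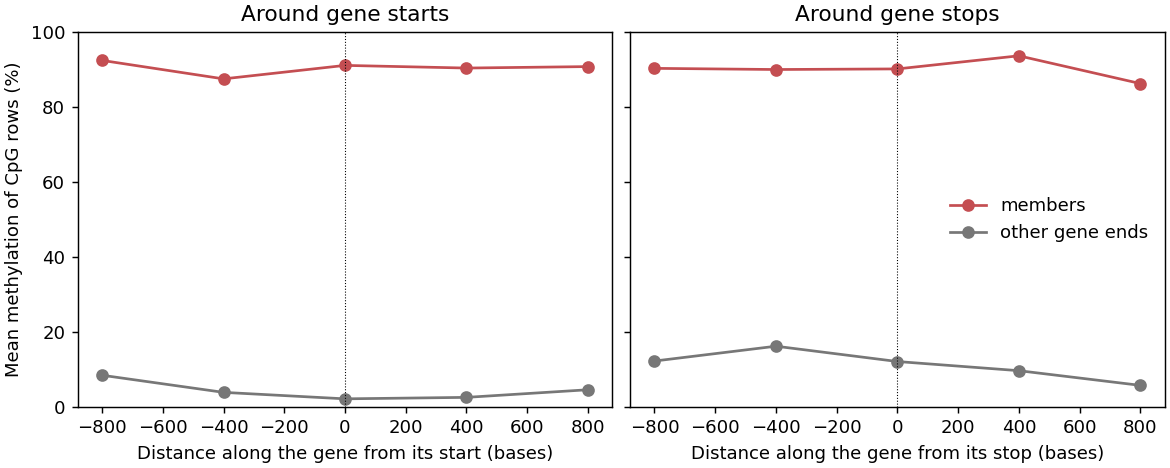
Mean methylation of complete CpG rows (percent) by distance from the gene start or stop, in bins of 400 bases, negative upstream and positive downstream along the gene's strand. Red points are members, from 86.3% to 93.7%, and grey points all other gene ends of that kind, from 2.11% to 16.2%.

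Rows that had values in only part of the mice were not used to choose the members. They are counted here where at least 3 mice of every group had a value. At least 1 such CpG row lay in the window of 107 members. Their mean was at least 70% at 87 of these ends and under 20% at 8, with a median of 89.7%. Among the 48 member starts with such rows, 37 were at 70% or more and 7 under 20%, while at the 38 member stops 34 were at 70% or more and none was under 20%. The partly covered rows thus lay in the same class as the complete rows at 87 of 107 members.

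Some windows were split, with methylated complete rows and partly covered rows at a lower level. At Rps24, Ascl5, Dnah7c, Aacs, Notch4 and Nmi the complete rows lay upstream of the start, and at Znhit3 and Creg2 inside the gene. Rps24 encodes a protein of the small ribosomal subunit. It had 90.9% on 3 complete rows between -760 and -696 bases from the start, and 0.465% on 5 partly covered rows 111 to 169 bases into the gene. Ascl5, a basic helix-loop-helix factor, had 76.8% between -459 and -423 and 0.998% on 12 partly covered rows between 200 and 275. Dnah7c, a dynein heavy chain, had 82.0% between -641 and -582 and 1.04% on 7 rows between 90 and 154. Aacs, acetoacetyl-CoA synthetase, had 87.5% on its complete rows and a mean of 16.1% on 14 others. Of these, the rows near the complete ones, at -754, -681 and -676, had 86.8, 59.3 and 66.2%. The rest, from -220 to -32, had 0% to 8.3%. Notch4, a receptor of the Notch family, had 74.2% and 28.3%, and the upper end of Znhit3 had 73.0% and 0.740%. Nmi and Creg2 had a single partly covered row each, at 0% and 11.3%. For these genes the complete rows cover only a part of the window. They were named after their values were seen.

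The same pattern was present in the germline gene with the highest level. Dazl encodes an RNA-binding protein of germ cells. Its 4 complete rows lay between -618 and -567 bases from the start and had 98.0, 96.7, 99.0, 97.2 and 98.6% in the standard mice. The enriched mice had 96.3, 96.9, 98.1, 98.3 and 98.6%, and the withdrawal mice 94.2, 98.3, 94.0, 97.2 and 97.6%. The groups overlapped. Its 8 partly covered rows, from -530 to 822, had a mean of 19.5% and ranged from 0% to 88.5%.

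Of the 36 germline genes on the list, 7 had a measured end and 3 of these ends were members. Beside the Dazl start these were the stop of Syce1, which encodes a central element protein of the synaptonemal complex, at 93.4%, and the start of Zfp42, a marker of pluripotent cells also called Rex1, at 74.1%. Dmrtb1 stood below the threshold at 62.4%, and Mei4 (2.06%), Smc1b (2.48%) and Meiob (3.30%) were low. The median of the 7 ends was 62.4%, against 1.97% for all 4200 ends. In the other lists, the only member was the stop of Psmd4, the ubiquitin receptor of the proteasome, at 93.4%, among 8 measured ends of housekeeping genes whose other 7 were under 20%. No liver, blood, skin, muscle or synaptic gene on the lists was a member, with 9 measured ends among them.

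Genes were also grouped by name, after the values were seen. Of 20 measured ends of olfactory receptor genes 16 were members, at 9 of 13 genes, with a median over the 20 ends of 89.7% and the lowest at 3.13%. Their coding sequence is short, so that 7 of these genes were members at both ends through the same rows. Taar4, a trace amine receptor, had 97.5% at both ends, again on shared rows, and of 2 measured ends of vomeronasal receptor genes Vmn1r65 was a member at 86.0% and the other end was at 8.67%. Of the keratin and keratin-associated genes 3 of 6 ends were members. These were both ends of Krtap24-1, on shared rows at 97.5%, and the start of Krt75 at 83.8%. Of 24 ends of Hox genes 0 were members. Of 96 ends of zinc finger genes named Zfp 5 were (5.21%), near the 5.05% of all 4200 ends. Predicted or clone-named genes gave 28 members of 132 ends.

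The members with the most rows are given next. D1Pas1 had 12 complete rows and a mean of 95.04%, and Prr23a3 had 10 and a mean of 77.1%. The starts of Arl9, A1cf and Mgst2 had 8 rows each, at 97.1%, 95.5% and 92.8%. The start of Klra3, described with the housing comparisons, also had 8. Arl9, an ADP-ribosylation factor-like gene, varied least of these: its mice ranged from 93.9% to 98.9%. Mgst2, a microsomal glutathione S-transferase, had 89.5% or more in all mice but the fifth enriched mouse, at 71.1%, and the first withdrawal mouse, at 87.9%.

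Rows at member stops lay mostly inside the gene, at 67.3%, against 39.9% at stops under 20%. The highest were Man1c1, a Golgi mannosidase, at 99.3%, Asic2, a subunit of acid-sensing ion channels, at 98.7%, Fam50b at 98.5%, Sash1 at 98.0% and Mgmt, which repairs alkylated guanine in DNA, at 97.9%. At Man1c1 all 5 withdrawal mice were at exactly 100%, with 4 of 5 standard and 3 of 5 enriched mice. The stop of Slc6a4, the serotonin transporter gene, had 95.6% on 6 rows and was named after its value was seen.

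Where both ends of a gene were measured on separate rows, the other end was low at all but 2 members. Of 60 members whose other end was also measured, 32 shared rows with it and 28 did not. Among the 28 the other end was under 20% at 26 and from 20% to under 70% at 2, with a median of 1.94%. The exceptions were Spx, a neuropeptide gene, at 45.5% and Tmem267 at 57.6%. Of the 28 members 17 were stops, 9 had no strand in the table and 2 were starts. The start was under 20% at 15 of the 17 stops, beside 94.1% of all measured starts. Of all 4200 gene ends 90% were under 20%. A low other end was therefore near the general share and is not particular to these genes.

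Ntrk2 encodes TrkB, the receptor of brain-derived neurotrophic factor. Its stop had 92.2% on 3 rows (chr13:59133682-59133738) and its start 0.619%. The stop values were 88.9, 92.1, 96.4, 88.3 and 97.5% in the standard mice, 88.5, 94.1, 94.9, 98.7 and 96.5% in the enriched mice, and 91.4, 83.7, 91.5, 89.4 and 90.9% in the withdrawal mice. These ranges overlapped.

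The other members with the least methylated opposite end were Tfap4, a helix-loop-helix transcription factor, with 81.1% and 0.553%, and Chfr, a mitotic checkpoint ubiquitin ligase, with 95.8% and 0.724%. Gsr, glutathione reductase, had 96.4% and 0.805%, and Arl6ip5 had 96.2% and 0.918%. The lower end of Gap43, the growth-associated protein of axons, had 88.5% and its upper end 2.64%. Asic2 had 98.7% at the stop and 2.49% at the start.

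**Figure D3:**
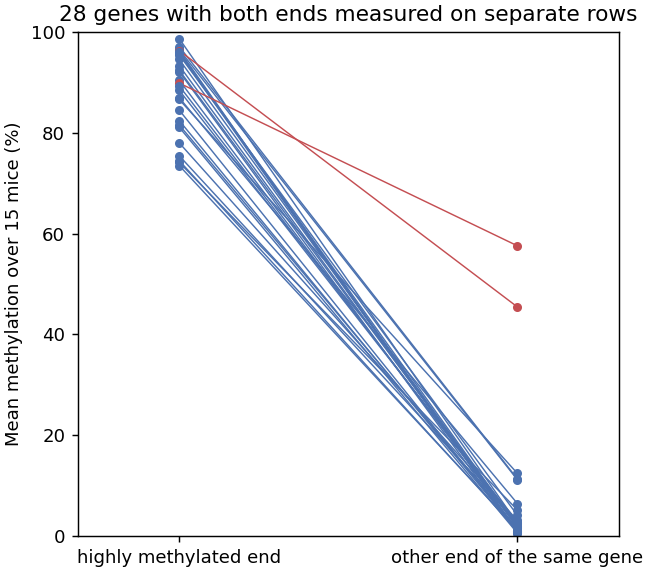
Mean methylation over 15 mice (percent) at the member end and at the other end of the same gene for the 28 members measured on separate rows; each line is a gene. Blue lines end under 20% and the 2 red lines are Spx at 45.5% and Tmem267 at 57.6%.

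Other properties of the windows were compared as descriptions. Another gene's end lay in the window of 10 of 212 members (4.72%), against 27.9% of gene ends under 20%. Cytosines outside CpG had a median level of 0.735% in the members' windows, 0.641% in windows of 20% to under 70% and 0.495% in those under 20%. Incomplete conversion would add to each of these values, and its part was not tested. The members' median gene length was 13851 bases, against 24017 for the low ends.

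The spread between mice of 1 group was larger at members than at low ends. The median within-group SD, pooled over the 3 groups, was 5.6 percentage points at members, 2.0 at ends under 20% and 10.01 at intermediate ends. The ends under 20% had a median level of 1.8%, near the lower limit of the scale. They also had a median of 5 rows, against 3 at members. The part of level and row number in these SDs was not tested. The most stable members were Prdm10 and Gm7244, on the same rows, with an SD of 0.987. The most variable was the start of Zfp42, with an SD of 22.6.

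The 3 rows of the Zfp42 start lie between -466 and -399 bases from it (chr8:43307408-43307475). Its standard mice had 80.7, 0, 84.6, 81.0 and 47.1%, its enriched mice 73.4, 100, 72.5, 67.8 and 72.7%, and its withdrawal mice 100, 84.6, 78.9, 83.0 and 85.5%. A single standard mouse was at 0 on all its rows, and the ranges of the groups overlapped. The next most variable were Nckap1l, a haematopoietic subunit of the WAVE complex (SD 18.9), Hhip, an inhibitor of hedgehog ligands (18.8), Sstr2, a somatostatin receptor (16.8), and Ascl5 (16.6). At the Hhip stop the first standard mouse had 27.7% and the other 4 between 89.2% and 100%. These SDs rest on 3 to 5 rows of unknown depth.

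The ends nearest to the threshold are given without a test. Just inside were Kin at 72.1%, Zcchc4 at 71.3% and Pgm5 at 71.0%, and just outside Ak1 and Klkb1, both at 69.4%, and Klhl3 at 69.2%. Single mice of Zcchc4 ranged from 46.3% to 93.6% and of Klhl3 from 19.05% to 100%.

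The housing groups were compared in a contrast that does not use the mean over all mice. Averaged over the 212 members, methylation was 89.7% ± 0.780 (SD, n = 5) in the standard mice, 89.7% ± 0.787 in the enriched mice and 90.1% ± 0.594 in the withdrawal mice. Single mice ranged from 88.6% to 90.7%, from 88.5% to 90.6% and from 89.1% to 90.5%. The ranges overlapped, and no test was made of this mean because the members were chosen as a set. For the 78 starts the means were 89.6% ± 1.29, 90.3% ± 0.755 and 90.7% ± 0.817, and for the 87 stops 89.98% ± 0.746, 89.6% ± 1.39 and 89.8% ± 0.719.

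**Figure D4:**
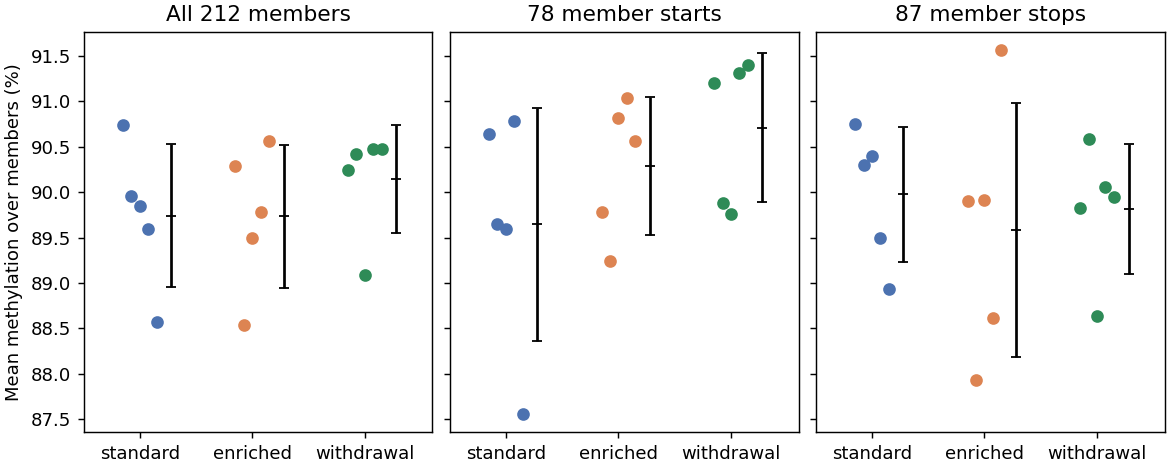
Mean methylation (percent, axis not from 0) over all members, member starts and member stops; each point is a mouse and the bar beside each group is its mean ± SD (n = 5). The 3 groups overlap in every panel, from 87.6% to 91.6%.

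Each gene end was then tested with limma over all 4328 measured ends, X chromosome included, on a logit-like log2 scale of methylated against unmethylated percent. None of the 212 members reached an adjusted p of 0.05 in any of the 3 comparisons, and none of all 4328 ends did, so 0% were called. For enriched minus standard the median difference over members was -0.0915 percentage points, beside 0 over all ends. An unadjusted p under 0.05 was reached by 15 members (7.08%), beside 5.29% of all ends, and the groups did not overlap at 1 member, beside 0.508% of all ends. For withdrawal minus standard the median difference was 0.0998 points, beside 0.107, and 10 members (4.72%) had an unadjusted p under 0.05, beside 4.9%. The groups did not overlap at 1 member, beside 0.578%. For withdrawal minus enriched the median was -0.0881 points, beside 0.0602. Here 17 members (8.02%) had an unadjusted p under 0.05, beside 5.18%, and 3 did not overlap, beside 0.878%. The F test for any difference among the groups gave 0 calls and 15 members (7.08%) at an unadjusted p under 0.05, beside 4.9%. Members that share rows enter these counts separately.

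The precision of the member values limits what these comparisons can show. For enriched minus standard, the 95% interval of the difference lay within ±10 percentage points at 98 of 212 members and within ±20 at 192. The corresponding counts were 106 and 197 for withdrawal minus standard, and 102 and 191 for withdrawal minus enriched. Differences of a few points could not be told from 0 at most members.

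The smallest p for enriched minus standard was at the start of Klra3, an inhibitory receptor of natural killer cells of the Ly49 family. Its 8 rows (chr6:130337483-130337586, inside the gene) had 83.3, 88.7, 93.1, 81.6 and 79.6% in the standard mice and 98.9, 94.0, 90.02, 92.9 and 98.4% in the enriched mice. The withdrawal mice had 91.6, 91.6, 91.4, 90.5 and 97.9%. The enriched mean was 9.57 points above the standard mean (95% interval 3.87 to 15.3), with overlap between 90.02% and 93.1%. In limma, fitted across all ends, p was 0.00474 and the adjusted p 0.866. The Ly49 genes are a family of similar copies, so reads of 1 copy may be assigned to another, which was not tested.

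Tnk1, a non-receptor tyrosine kinase, and Plscr3, a phospholipid scramblase, converge on the same 6 rows at their stops (chr11:69851076-69851289). The standard mice had 98.8, 96.9, 92.0, 91.7 and 88.5%, the enriched mice 86.4, 84.8, 68.3, 86.5 and 88.9%, and the withdrawal mice 89.4, 91.4, 95.5, 91.4 and 96.2%. The enriched mean differed from the standard mean by -10.6 points (interval -17.8 to -3.35), with an unadjusted limma p of 0.00565 and an adjusted p of 0.866. All withdrawal mice were above all enriched mice, with an adjusted p of 0.857.

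Ccdc70, a coiled-coil gene, was among the 5 smallest p in both comparisons with the standard group. Its stop had 94.5, 88.2, 93.6, 90.4 and 95.5% in the standard mice, 100, 97.9, 96.5, 98.6 and 95.1% in the enriched mice and 98.6, 95.3, 97.7, 96.9 and 93.9% in the withdrawal mice. The enriched and withdrawal means were 5.18 and 4.04 points above the same standard mice, with limma adjusted p of 0.866 and 0.922. The groups overlapped. With partly covered rows included, the enriched minus standard difference at Ccdc70 was 0.29 on the log2 scale in place of 0.85. The member whose enriched and standard mice did not overlap was the stop of BC051142, at 90.5% to 93.7% in the standard and 93.9% to 97.1% in the enriched mice, with a difference of 2.6 points and an unadjusted limma p of 0.0846. It was named for that after its values were seen.

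For withdrawal minus standard the smallest p was at the upper end of Gsr, which encodes the enzyme that regenerates reduced glutathione. Its 6 rows (chr8:33697340-33697480) had 96.0, 93.6, 94.2, 89.4 and 93.2% in the standard mice and 99.6, 96.8, 100, 98.3 and 100% in the withdrawal mice, which did not overlap. The enriched mice were at 100, 95.8, 97.5, 94.1 and 97.1%, and overlapped both. The difference was 5.64 points (interval 2.33 to 8.96), with a limma p of 0.00126 and an adjusted p of 0.844. At the stop of Zfp217, a zinc finger transcription factor, the withdrawal mean differed by -7.47 points, and at the upper end of Hcar2, the niacin receptor, by -5.47 points. The standard mice at Hcar2 were all at exactly 100%. At the start of Rpl3l, a ribosomal protein paralogue of striated muscle, the difference was 8.36 points. The adjusted p of these 3 was 0.922. With partly covered rows included, the difference at Rpl3l was 0.41 on the log2 scale in place of 1.14.

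For withdrawal minus enriched the smallest p was at the lower end of Incenp, the inner centromere protein of the chromosomal passenger complex. Its 3 rows lie outside the gene (chr19:9871619-9871681). The enriched mice had 100, 100, 95.8, 100 and 100%, the withdrawal mice 85.4, 94.1, 86.3, 82.8 and 94.4%, and the standard mice 93.1, 90.02, 100, 81.4 and 97.2%. Enriched and withdrawal mice did not overlap, and standard mice overlapped both. The difference was -10.6 points (interval -17.3 to -3.86), with a limma p of 0.00128 and an adjusted p of 0.552. The opposite end of Incenp had a mean of 1.67%.

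Olfr284, an olfactory receptor gene of chromosome 15, had 98.0 to 100% in the enriched mice and 90.4 to 98.1% in the withdrawal mice at both ends, which share 3 rows, a difference of -5.61 points (limma adjusted p = 0.778). The stop of Pigbos1, a gene for a mitochondrial microprotein, had 73.8, 78.7, 73.7, 70.3 and 84.4% in the enriched mice and 93.1, 88.9, 81.4, 85.4 and 84.8% in the withdrawal mice. The difference was 10.5 points (interval 3.95 to 17.1), with the same adjusted p of 0.778. H1f7, a linker histone of spermatids, differed by -5.52 points at its start, with an adjusted p of 0.844. With partly covered rows included, this difference was -0.57 on the log2 scale in place of -0.97. In these 3 genes the groups overlapped.

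**Figure D5:**
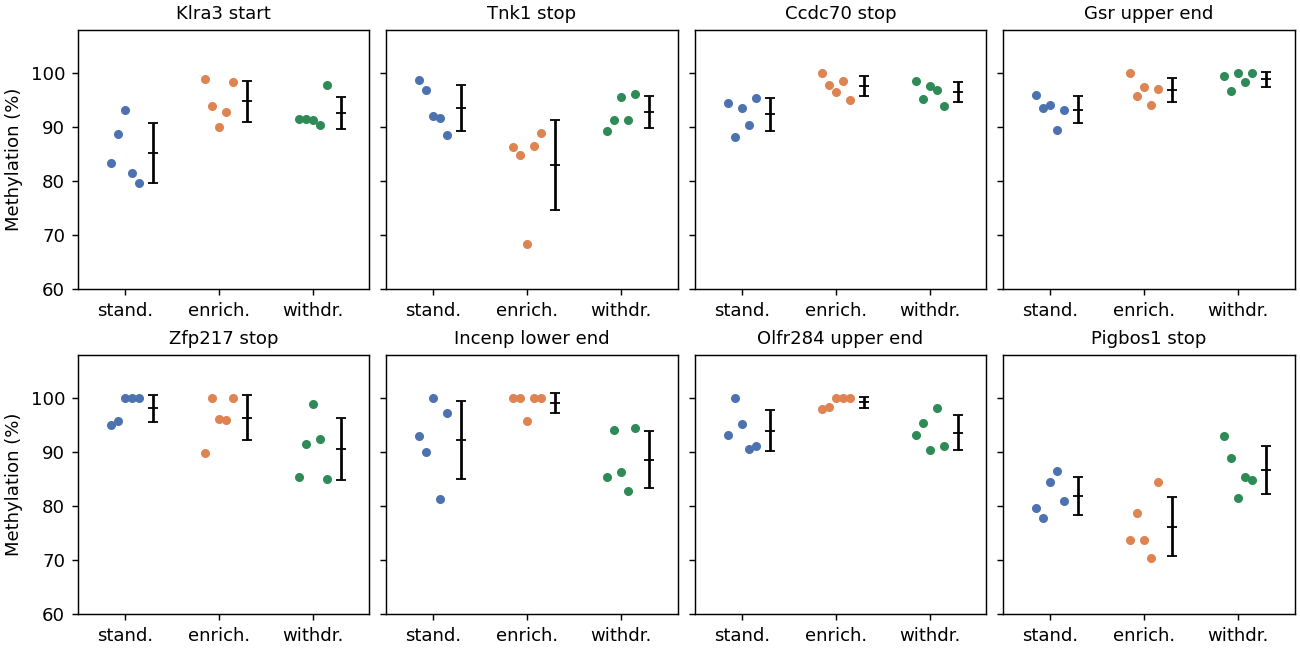
Methylation (percent, axis from 60) of 8 members, a selection from those named for a small p value. Each point is a mouse of the standard, enriched or withdrawal group, and the bar is the group mean ± SD (n = 5). Groups are separate for standard and withdrawal at Gsr, enriched and withdrawal at Incenp and at Tnk1; no adjusted p was under 0.05.

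Single rows gave no call either. Of the 762 rows, 729 ranged over at least 5 points and were tested among 100562 such rows with limma. None had an adjusted p under 0.05, as in all rows (0%). An unadjusted p under 0.05 was found at 41 rows (5.62%) for enriched minus standard, beside 5.15% of all rows, at 26 (3.57%) for withdrawal minus standard, beside 4.42%, and at 43 (5.9%) for withdrawal minus enriched, beside 4.3%. The smallest adjusted p among member rows was 0.683 at a row of the Zfp42 start, 406 bases before it, where standard mice had a mean of 44.5%, enriched mice 89.7% and withdrawal mice 86.7%. For the other comparisons it was 0.692, at a row of Klra3, and 0.813, at a row of Gbp9.

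The germline list was read the same way. Of its 7 measured ends 0 were called in any comparison by limma. An unadjusted p under 0.05 was found at 1 end for enriched minus standard, beside 5.29% of all ends. It was found at 1 for withdrawal minus standard, beside 4.9%, and at 0 for withdrawal minus enriched, beside 5.18%. The housekeeping list gave 0 calls and 0, 0 and 1 ends at an unadjusted p under 0.05. Each of the other lists had 0 or 1 such ends in a comparison. Counts this small cannot be told from the shares over all ends.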

How the data were processed

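RRBS percentages from the dentate gyrus of 15 separate mice, 5 per housing group by the labels, were analysed. The values are percent methylation per cytosine as the authors deposited them, per the file headers. The submitters' processing notes name Trim Galore 0.4.0, cutadapt 1.8.1, Bismark 0.16.1, methylKit 1.5.2 and the build mm10, without parameters. Read depth is not given in the sources used here. Strand and promoter sequences came from RefSeq (GRCm38.p6).

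Rows before the chromosome column restarts are CpG rows; 2462278 later rows are other cytosines. Each gene end's mean percent per mouse was converted to log2((percent + 5)/(100 - percent + 5)) and tested with limma 3.58.1 (R 4.3.3; variance trend, all 15 mice, no covariate, two-sided, Benjamini-Hochberg over all 4328 ends, threshold 0.05). Rows with a range of at least 5 points were tested likewise. Intervals of 95% come from the same fit on percentages. The scripts were tested on simulated data, and tables were handled with Python 3.11.15 and pandas 2.3.3.

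Members and lists were chosen with earlier results of these data known. Genes were named by rule: the 5 smallest p per comparison, the 10 highest starts and 5 highest stops, the 5 with most rows, the 5 with largest and smallest SD, the 5 with the lowest other end, 3 ends on each side of 70%, and members on the fixed lists. Promoters were printed for the starts with most rows in them, ties going to the start with more rows in its window. A member that the rule names is not reported here. Alternatives changed the scale, offset, variance trend, window, row minimum, partly covered rows, threshold and mice left out.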

Additional observations from a re-analysis of the deposited data

Results flagged for a closer look

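A mouse stood apart from the other 4 of its group in 24 of 156 groups examined. The groups examined were those of 49 named members and 3 means over members, in 3 housing groups each. The gap had to be larger than chance gives in about 1 of 20 groups. That rate does not hold where the other 4 mice were tied at the upper limit of the scale, because any gap was then flagged. Members that share rows were counted separately, and some members were named for a large SD. The count of 24 can therefore not be set against a rate of 1 in 20. In the mean over all members the third withdrawal mouse was at 89.1%, with the others between 90.2% and 90.5%.

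The widest gaps were at the Hhip stop, where the first standard mouse had 27.7% against 89.2% to 100%, and at the Arl6ip5 upper end, where the fifth enriched mouse had 56.8% against 98.2% to 100%. The second enriched mouse was at 100% at Zfp42, against 67.8% to 73.4%. At the shared rows of Tnk1 and Plscr3 the third enriched mouse had 68.3%, against 84.8% to 88.9%. At Psmd4 the fifth withdrawal mouse had 78.9%, against 90.2% to 93.0%, and at Syce1 the third withdrawal mouse had 85.7%, against 95.7% to 98.8%. At Ntrk2 the second withdrawal mouse had 83.7%, against 89.4% to 91.5%.

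A high mouse was found at Klra3 (the fifth withdrawal mouse, 97.9%, others 90.5% to 91.6%). In 8 groups the other 4 mice were all at exactly 100%: Gm11563 (89.9%) and Man1c1 (92.9%) in the fifth standard mouse, Gm7244 and Prdm10 (98.8%, same rows) in the second, Triml1 and Triml2 (97.4%, same rows) in the third, Incenp (95.8%) in the third enriched mouse and LOC115488029 (96.6%) in the fourth enriched mouse. Smaller gaps were at Arl6ip5 (95.3%) and Cbx7 (94.4%) in the third standard mouse, Arl9 (93.9%) in the first standard mouse, Asic2 (94.5%) in the fourth and Man1c1 (96.6%) in the first enriched mouse, and Cbx7 (94.9%) in the fifth withdrawal mouse. Read depth at these rows is unknown.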

How the results depend on the processing

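No member named for a small p reversed its direction or passed the threshold in that comparison under any alternative. The direction of the members named for other reasons was not followed. No member end or member row was called under any setting. Over all gene ends, leaving out each mouse gave 0 to 2 calls for enriched minus standard, with 2 without the fifth standard mouse, and 0 to 1 for withdrawal minus standard and for withdrawal minus enriched, with 1 without the fourth enriched mouse. For any difference among the groups it gave 0 to 2. None of these calls was a member.

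The number of members depended on the definition: 51 with at least 5 complete rows, 114 within 500 bases and 485 when rows seen in 3 or more mice per group were used, of which 199 were members as reported. A threshold of 80% gave 181 and of 60% gave 241. Gene starts made up 41.8% to 48.2% of members with known strand under these settings, against 47.3%. The difference of group means over members was -0.41 to 0.458 points for enriched minus standard under the 3 redefinitions of windows and rows. For withdrawal minus enriched it was 0.895 with at least 5 rows and -0.0985 within 500 bases. Leaving out each mouse in turn, it ranged from -0.299 (without the fifth standard mouse) to 0.293 (without the second enriched mouse) for enriched minus standard, turning its sign. It ranged from 0.108 (without the fifth standard mouse) to 0.662 (without the third withdrawal mouse) for withdrawal minus standard, and from 0.107 (without the second enriched mouse) to 0.669 (without the third withdrawal mouse) for withdrawal minus enriched.

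Mice carry numbers 1 to 5 in every group. Same-numbered mice did not deviate together (correlations from -0.0324 to 0.0543 in 15 pairs), so the numbers were not taken as pairs. A fit with the replicate number as a block gave 0 calls in every comparison of ends and rows, with 13, 8 and 18 members at an unadjusted p under 0.05 in place of 15, 10 and 17. Unknown depth, a median of 3 rows per member and values capped at 100% limit the precision. The deposited percentages do not separate 5-methylcytosine from 5-hydroxymethylcytosine.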

Other observations

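Some members outside the rule for named genes were picked after their values were seen and are given as values only. The start of Zdbf2, an imprinted gene, had 96.8% on 4 rows inside the gene. The start of Nop10, a subunit of box H/ACA ribonucleoproteins, had 88.4% on 6 rows, all upstream. The stop of Tiam1, an activator of the small GTPase Rac, had 96.6% on 5 rows. The stop of Snrnp70, a protein of the U1 small nuclear ribonucleoprotein, had 94.6% and its start 1.85%. The stop of Insyn1, a protein of inhibitory synapses, had 92.5% and its start 1.91%. Members were found on 21 of 306 measured ends of chromosome 7 (6.86%) and on 5 of 251 of chromosome 4 (1.99%). The share over all autosomes was 5.05%. Shares were higher on chromosomes 15 (7.77%), 19 (7.45%) and 1 (7.025%) than on chromosome 7. Members that share rows were counted separately.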
